A study of Homo sapiens and Mus musculus with 12 samples.

Results

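The regions described here are the Spdef peaks of mouse chromosome 19 (mm10). They were selected by 1 criterion, chromosome 19 in the chromosome column of the deposited mouse peak list, and number 282 of the list's 5719 peaks and of 19164 peaks in the 3 lists of the series. The chromosome itself was chosen on a measured value, its number of peaks per Mb, so its richness is given as a description and without a test.

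The list came from CUT&RUN, in which an antibody brings a nuclease to chromatin and the released fragments are sequenced. It was made in FC1245, a mouse pancreatic ductal adenocarcinoma line of C57/Bl6 background grown in culture, whose genotype includes Trp53LSLR172H/+ and Pdx1-Cre and which carries HA-tagged mouse Spdef. In such mice, Pdx1-driven Cre removes a stop cassette and turns on mutant Trp53 in pancreatic epithelium. There were 3 libraries with an HA antibody and 1 IgG library, all from this 1 line and all carrying the tagged factor, so endogenous Spdef was not mapped. The list is 1 measurement with no value per library. Differences therefore have no replicate spread to be set against, and the depth behind the peaks is unknown.

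Spdef is an ETS-family transcription factor. ETS factors bind DNA through a winged helix-turn-helix domain that reads a short purine-rich core, and Spdef prefers a GGAT core where most of the family prefer GGAA. In mucus-forming epithelia, such as those of gut and airway, Spdef drives the maturation of goblet cells. A bound region can lie at a gene's start or far from it, and neighbouring regions can belong to 1 regulatory locus, so the spacing of peaks is described here beside their number.

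Chromosome 19, the shortest of the mouse autosomes, held 4.59 peaks per Mb (282 peaks on 61.4 Mb). The next were chromosome 11 with 3.62 (442 peaks) and chromosome 15 with 3.40 (354 peaks). Among the 20 chromosomes compared, the autosomes and X, the lowest value was 0.678 on X. From the rate of the other chromosomes, 129.8 peaks would fall on chromosome 19, a ratio of 2.17 (95% Poisson interval 1.93 to 2.44). The ratios of chromosomes 11 and 15, each set against all other chromosomes, were 1.72 (1.57 to 1.89) and 1.60 (1.44 to 1.78). Chromosome 19 thus made up 2.33% of the length of these chromosomes and 4.93% of the list. These intervals cover counting error only, and they treat peaks as independent although peaks lie in groups, so they are too narrow.

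**Figure D1:**
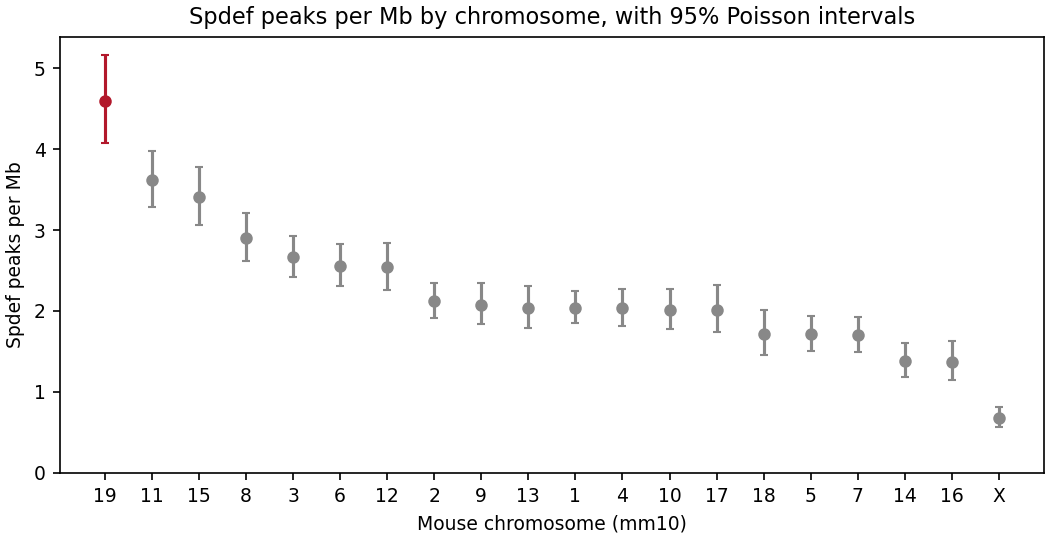
Spdef peaks per Mb (y axis) on each mouse chromosome (x axis, from richest to poorest), as points with 95% Poisson intervals from the number of peaks. Chromosome 19, in red, lies at 4.59 and chromosome 11 follows at 3.62.

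Peak widths on chromosome 19 lay close to those elsewhere. Chromosome 19 peaks had a median width of 443.5 bp (95% order-statistic interval 404 to 484, quartiles 307 and 719.25), and the 5435 peaks of the other chromosomes 436 bp (425 to 448, quartiles 291 and 728). The median was 446.5 bp on chromosome 11 and 479.5 bp on chromosome 15. At least 1000 bp wide were 33 chromosome 19 peaks (11.7%) and 652 of the others (11.996%). The widest 5% of the list, over 1332 bp, held 9 chromosome 19 peaks (3.19%, 95% Wilson interval 1.69 to 5.95) and 275 of the others (5.06%, 4.51 to 5.67). Narrower than 100 bp were 5 chromosome 19 peaks (1.77%, 0.760 to 4.08) and 181 of the others (3.33%). The smallest on chromosome 19 was 4 bp long. In all, the 282 peaks covered 155.7 kb, or 0.253% of the chromosome.

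Peaks were unevenly spread along the chromosome, with a rich first part, a sparse middle, a second rich part and a sparse end. Boundaries at 11, 36 and 49 Mb were set after seeing the positions and serve only to describe them. Before 11 Mb lay 94 peaks (8.55 per Mb), from 11 to 36 Mb 61 (2.44 per Mb), from 36 to 49 Mb 99 (7.62 per Mb) and from 49 Mb on 28 (2.25 per Mb). The length of the first part includes the 3.13 Mb before the first peak. The rich parts together are 24 Mb long and hold 193 peaks, 68.4% of those on the chromosome. Widths differed little between the 4 parts, with medians of 458.5, 417, 484 and 411 bp and intervals that all overlapped.

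**Figure D2:**
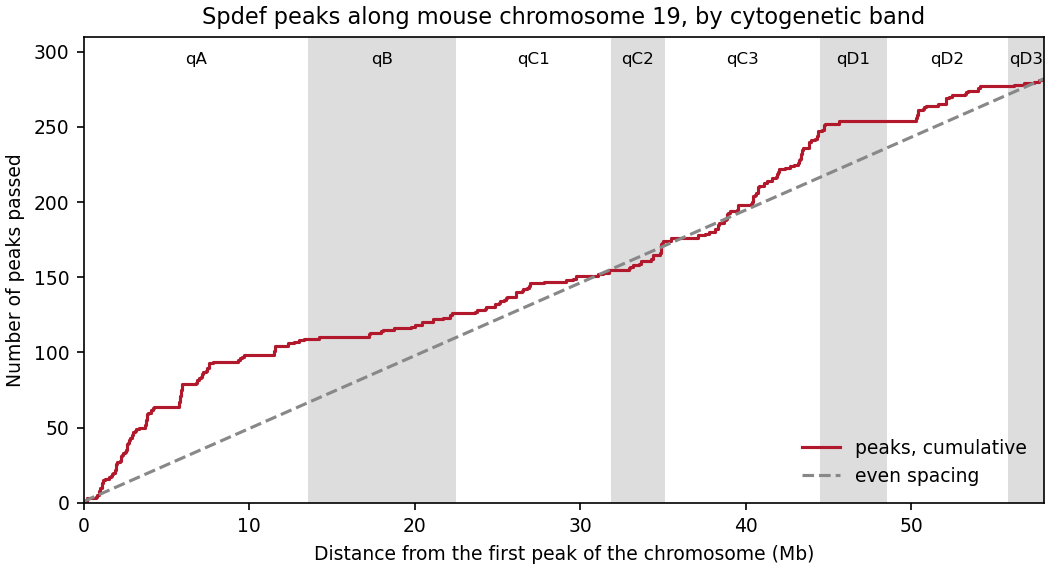
Number of chromosome 19 peaks passed (y axis) against the distance from the first peak in Mb (x axis), with cytogenetic bands shaded in turn and even spacing as a dashed line. The curve is steep in qA and in qC3, which hold 109 and 73 peaks, and flat over most of qD1 and into qD2.

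Cytogenetic bands give the same picture in named places. Against the chromosome's own rate, qC3 held 73 peaks where 42.95 would fall by length, a ratio of 1.70 (95% Poisson interval 1.33 to 2.14). In qA, the first band, 109 peaks stood against 76.6 (1.42, 1.17 to 1.72), and in qC2 19 against 14.9 (1.27, 0.766 to 1.99). The length of qA includes the 3.13 Mb before the first peak. Band ratios without that stretch were not computed, so the order of qA and qC3 may depend on it. Below their share were qD1 with 7 peaks (0.375, 0.151 to 0.772), qB with 17 (0.414, 0.241 to 0.662) and qC1 with 29 (0.675, 0.452 to 0.970). The intervals of qD2 with 23 peaks (0.684, 0.434 to 1.03) and qD3 with 5 (0.446, 0.145 to 1.04) reached past 1. All these intervals treat peaks as independent and are too narrow, so they do not set qC1 apart from qD2. With neighbours within 1 kb joined into 1 region, the ratio of qD1 was 0.242. Together qA and qC3 held 64.5% of the peaks on 42.4% of the length.

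**Figure D3:**
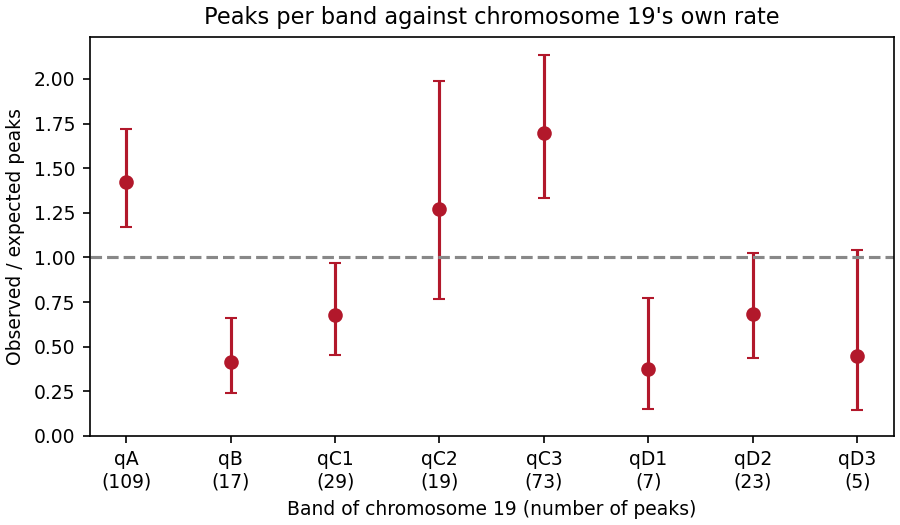
Observed over expected number of peaks (y axis) in each band of chromosome 19 (x axis, number of peaks in brackets), expected from the chromosome's own rate, with 95% Poisson intervals. Bands qA and qC3 lie above 1 with their intervals and qB, qC1 and qD1 below. The intervals treat peaks as independent and are too narrow.

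As background, these bands hold genes well known in epithelial and tumour biology. Band qA carries Malat1 and Neat1, long noncoding RNAs of nuclear speckles and paraspeckles. In qB lie Aldh1a1, an enzyme of retinoic acid synthesis, and Anxa1, a phospholipid-binding protein. Band qC1 carries Jak2, a cytokine receptor kinase, and Fas, a death receptor. Hhex, a homeobox factor of foregut endoderm, lies in qC2, and in qC3 lie Scd1, a stearoyl-CoA desaturase, and Pax2, a factor of kidney development. Tcf7l2, a transcription factor of Wnt signalling, lies in qD2. A band holds many genes and the peaks were not placed against gene models, so no count given here belongs to any of these genes.

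In 62 windows of 1 Mb, the median was 3 peaks on chromosome 19, against 1 in 2583 windows of the other chromosomes. No peak lay in 16 of the 62 (25.8%) and in 1059 of the 2583 (41.0%). The 16 include the windows of the first 3 Mb, which lie before the first peak. At least 10 peaks lay in 10 windows of chromosome 19 (16.1%) and in 83 elsewhere (3.21%). Counts per window are not independent of the peaks per Mb for which chromosome 19 was chosen. These differences from the other chromosomes are therefore a description of the same richness and were not tested. Window values of the next richest chromosomes alone are not given here. The fullest window, chr19:5000001-6000000, held 23 peaks, a number that 1 other window of the genome also held and only 1 exceeded, with 35. Its peaks had a median width of 601 bp. It was followed by chr19:6000001-7000000 with 17 peaks, chr19:46000001-47000000 with 16, chr19:4000001-5000000 with 15 and chr19:43000001-44000000 with 13. Peaks in the window from 4 Mb were narrow, with a median of 287 bp, and those in the window from 46 Mb wide, with a median of 637.5 bp. The 10 fullest windows, 16.3% of the length, held 139 peaks (49.3%, 95% Wilson interval 43.5 to 55.1).

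Between the first peak and the last, stretches of over 1 Mb without a peak numbered 12 and added up to 22.5 Mb, 36.6% of the chromosome. The 3.13 Mb before the first peak also held none and are not among the 12. No genome sequence was used, so whether peaks could be called in those 3.13 Mb was not checked here. The longest of the 12 was 4.63 Mb (chr19:48783034-53412412, from qD1 into qD2), followed by 3.03 Mb (chr19:17356668-20390085, in qB), 2.03 Mb (chr19:57315313-59345034, from qD2 into qD3), 1.85 Mb (chr19:12796096-14645396, in qA) and 1.66 Mb (chr19:38609307-40269211, in qC3). They cut the peaks into 13 blocks, of which 3 held 172 of the 282 peaks. The block nearest the start of the chromosome, chr19:3134405-7383620, begins with the first peak and held 64 peaks on 4.25 Mb, or 15.1 per Mb. After 1.49 Mb without a peak came chr19:8870977-10926717, with 30 peaks on 2.06 Mb (14.6 per Mb). The block with the most peaks, chr19:40269212-48783033 in qC3 and qD1, held 78 on 8.51 Mb (9.16 per Mb). Sparse blocks stood in the middle, such as chr19:20390086-21864258 and chr19:22916180-25400052 in qB with 6 and 10 peaks. The last block, in qD3, had 5 peaks on 1.81 Mb and ended with the last peak, chr19:61151540-61151859.

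Dense segments were defined as runs of at least 5 peaks, each within 50 kb of the next. Chromosome 19 had 13, holding 82 peaks (29.1%, 95% Wilson interval 24.1 to 34.6) on 881 kb, or 1.43% of its length. Of the 13, 7 lay in qA, 4 in qC3 and 1 each in qC2 and qD2. Band qA thus had 49 of its 109 peaks in such segments, qC3 21 of 73, and qB, qC1, qD1 and qD3 none.

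The segment with the most peaks was chr19:8870977-8998115 in qA, with 11 peaks on 127 kb. Its peaks were of even size, from 234 to 474 bp with a median of 385 bp, none of them wide. They formed 3 close groups, at chr19:8870977-8888844 (3 peaks of 404, 450 and 467 bp), chr19:8929889-8942913 (3 peaks of 314, 474 and 234 bp) and chr19:8983052-8998115 (4 peaks of 385, 235, 345 and 414 bp), with 1 peak alone at chr19:8966434-8966767. The next peak beyond the segment lay 55.2 kb on, just past the 50 kb allowed.

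Next came chr19:6851728-6988537, also in qA, with 10 peaks on 137 kb and widths from 143 to 1869 bp. It ran over a far wider range of sizes and held 2 of the chromosome's 10 widest peaks, chr19:6950652-6952520 (1869 bp) and chr19:6987147-6988537 (1391 bp). A segment of 7 peaks in the same band, chr19:5016101-5118308, had the highest median width of the 13, 836 bp. At its right end stood a peak of 1500 bp (chr19:5105895-5107394), followed by peaks of 836 and 979 bp.

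The tightest places lay farther along. In qC2, chr19:38025563-38055407 held 7 peaks on 29.8 kb, of which 6 lay within 13.5 kb (chr19:38025563-38039107). Those 6 measured 414, 251, 1093, 577, 633 and 1116 bp, and the gaps between them ran from 338 to 4132 bp. Peaks covered 30.2% of this stretch, against 0.253% of the chromosome. This 1 segment held 7 of the 19 peaks of qC2. In qC3, chr19:46499915-46529106 held 6 peaks on 29.2 kb in 2 groups of 3, of 663, 255 and 714 bp and of 1045, 183 and 454 bp, set 17.4 kb apart.

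Of the others, chr19:14645397-14687068 lay in the last part of qA, with 6 peaks of 102 to 1280 bp and 1.85 Mb without a peak before it. In qD2, chr19:53511461-53555270 held 5 peaks of 411 to 899 bp, its neighbours at least 1633 bp apart. The remaining segments had 5 peaks each. In qC3 they were chr19:43523473-43571810, chr19:43878066-43940245 and chr19:47463796-47537662. In qA they were chr19:4038055-4099549, chr19:4213936-4283190 and chr19:5688834-5744205. The segment from 4038055 had the smallest median width of the 13, 180 bp, and the one from 5688834 a median of 471 bp and a widest peak of 1120 bp.

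**Figure D4:**
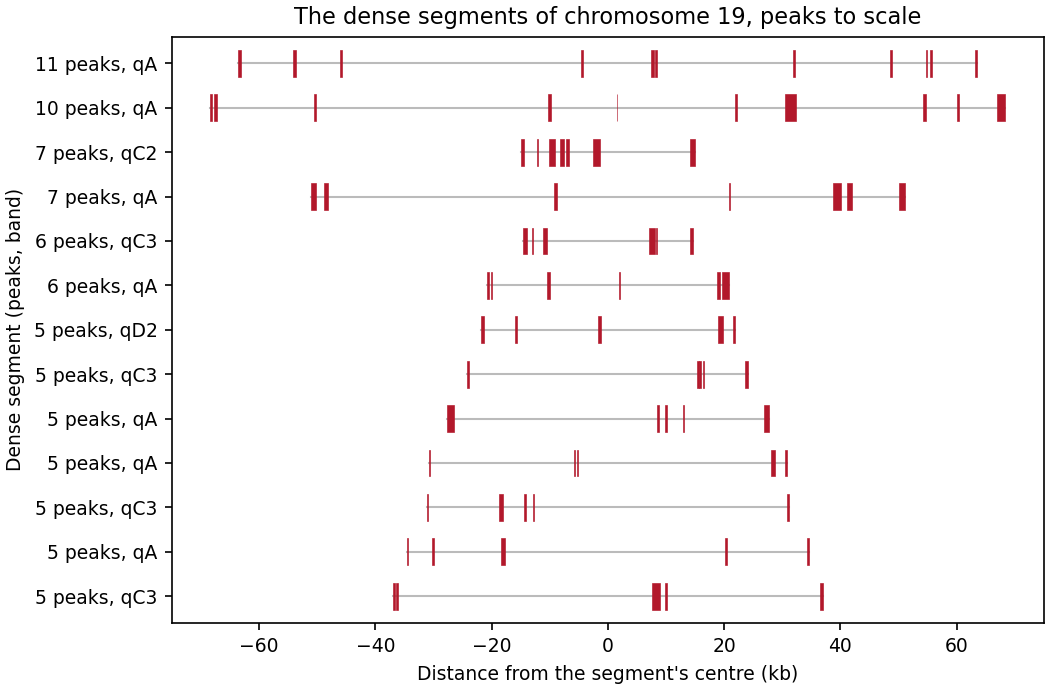
The dense segments of chromosome 19, 1 per row with its number of peaks and band (y axis), with peaks drawn at their width against the distance from the segment's centre in kb (x axis). The upper rows, with 11 and 10 peaks, extend over 127 and 137 kb, and the row of 7 peaks in qC2 over 29.8 kb.

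At the smaller scale of clusters, at least 3 peaks each within 12.5 kb of the next, chromosome 19 had 16, holding 55 peaks (19.5%, 95% Wilson interval 15.3 to 24.5). Of the 16, 8 lay in qA, 6 in qC3 and 1 each in qC2 and qD1, and 13 lay inside a dense segment. The qC2 cluster of 6 peaks was the largest, 4 others had 4 peaks and 11 had 3. Those of 4 were the last group of the 11-peak segment, chr19:43562975-43571810, chr19:43878066-43896518 and chr19:14645397-14668235. The 3-peak clusters with the shortest spans were chr19:47852032-47854943 in qD1 (504, 65 and 1322 bp on 2.91 kb), chr19:46499915-46504110 in qC3 (4.20 kb), chr19:5724925-5729656 in qA (4.73 kb), chr19:46983550-46988685 in qC3 (5.14 kb) and chr19:46521516-46529106 in qC3 (7.59 kb). In the first and the fourth of these 5, peaks covered 64.9% and 53.1% of the span.

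For peaks spread alike, more peaks per Mb put more of them within a fixed distance of each other. Shares of single chromosomes did not always follow peaks per Mb, as chromosomes 11 and 15 show below. The other chromosomes together had 14.5% of their peaks in clusters (786 of 5435, 13.6 to 15.4) and 12.8% in dense segments (693, 11.9 to 13.7), against 19.5% and 29.1% on chromosome 19. Mean spacing was 217.8 kb on chromosome 19 and 473.3 kb on the others. With the allowed distances on the other chromosomes widened in the same proportion, to 27.2 and 108.6 kb, their shares rose to 23.2% (22.1 to 24.4) and 28.3% (27.1 to 29.5). The difference in clusters then turned to the other direction. Both widened shares lay within the intervals of the chromosome 19 shares, 15.3 to 24.5 for clusters and 24.1 to 34.6 for dense segments. On chromosome 15, where mean density was lower, 23.2% of peaks lay in clusters and 28.2% in dense segments at the unwidened distances. Chromosome 11 had 15.2% and 17.0%. No test of these differences was made, since peaks of 1 list are not replicates.

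Gaps between neighbouring peaks are not independent of the density for which the chromosome was chosen. Their median was 55.2 kb on chromosome 19 (quartiles 9.04 and 210.8 kb), 105.4 kb on the other chromosomes, 66.6 kb on chromosome 11 and 48.7 kb on chromosome 15. Chromosome 15 thus had a smaller median gap than chromosome 19 with fewer peaks per Mb (3.40 against 4.59). As a share of the mean spacing, the median gap was 25.4% on chromosome 19 and 22.3% on the others. Gaps of over 500 kb made up 10.7% of those on chromosome 19 (30 of 281) and 21.6% elsewhere (1172 of 5416). Between 12.5 and 50 kb lay 22.1% and 15.3%. At most 12.5 kb separated 77 neighbours on chromosome 19 (27.4%, 22.5 to 32.9) and 1202 elsewhere (22.2%, 21.1 to 23.3).

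Some peaks lay very close to their neighbours. On chromosome 19, 32 gaps were at most 1 kb (11.4%, 8.18 to 15.6, against 8.90% elsewhere), and 61 peaks (21.6%) had a neighbour that near. The smallest gap was 64 bp, between chr19:41263165-41263552 (388 bp) and chr19:41263617-41264245 (629 bp) in qC3. Next were 83 bp between chr19:43562975-43563260 and chr19:43563344-43563671, and 105 bp between chr19:47463796-47464145 and chr19:47464251-47464562. Within these 32 pairs the median gap was 303 bp, and the wider and the narrower peak had medians of 492 and 287.5 bp. Of the 32, 13 had a wider peak at least 2 times the narrower, 10 lay in qA and 11 in qC3. These bands held 38.7% and 25.9% of all chromosome 19 peaks. Joining neighbours within 1 kb left 250 regions on chromosome 19 and a ratio to the rest of 2.11.

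Peaks with a close neighbour had the lowest median width, on chromosome 19 with overlapping intervals. The 61 with a neighbour within 1 kb had a median width of 345 bp (302 to 446), the 136 with the nearest over 1 and up to 50 kb away 477.5 bp (414 to 558), and the 85 with none within 50 kb 454 bp (389 to 587). On the other chromosomes the medians were 381 bp (365 to 404), 466 bp (452 to 485) and 430 bp (416 to 447), where the first interval overlapped neither of the others. Peaks inside dense segments had a median of 413 bp (336 to 474) and those outside 463.5 bp (403 to 526), with overlapping intervals.

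**Figure D5:**
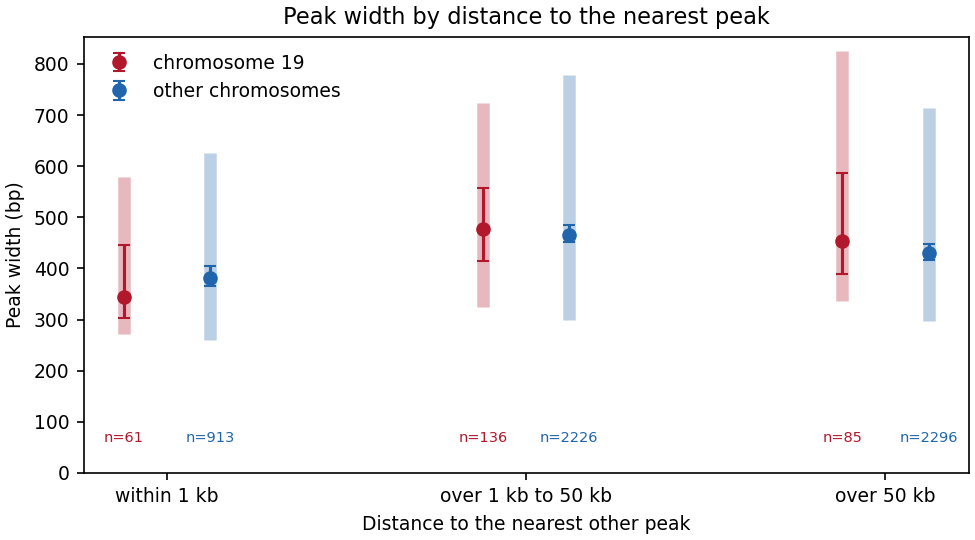
Peak width in bp (y axis) by distance to the nearest other peak (x axis), for chromosome 19 in red and the other chromosomes in blue. Points are medians with 95% order-statistic intervals, pale bars the quartiles, and medians are lowest within 1 kb, at 345 and 381 bp.

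The widest chromosome 19 peaks lay both inside and outside the dense segments. The widest of all, chr19:45497933-45500181 in qC3 (2249 bp), ranked 30 among all peaks on assembled chromosomes and its nearest neighbour lay 290106 bp away. The peak of 1869 bp in the 10-peak segment of qA ranked 73. It was followed by chr19:9073266-9074869 in qA (1604 bp), chr19:42088695-42090277 in qC3 (1583 bp), the peak of 1500 bp in the 7-peak segment of qA, chr19:36832721-36834121 in qC2 (1401 bp), the peak of 1391 bp at the end of the 10-peak segment, chr19:10101008-10102382 in qA (1375 bp), chr19:57313950-57315312 in qD2 (1363 bp) and chr19:47853622-47854943 in qD1 (1322 bp). Of these 10, 3 lay in a dense segment, near the 29.1% of all chromosome 19 peaks that did. In a cluster lay 3, against 19.5% of all chromosome 19 peaks. No neighbour within 50 kb was found for 4, against 85 of all 282. The peak in qD2 was the last before 2.03 Mb without any.

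The narrowest peaks were scattered, each in another band. The 5 under 100 bp were chr19:30031789-30031792 in qC1 (4 bp), chr19:23570457-23570512 in qB (56 bp), chr19:47853256-47853320 in qD1 (65 bp), chr19:41838375-41838441 in qC3 (67 bp) and chr19:9977329-9977401 in qA (73 bp). That in qD1 was the middle peak of a 3-peak cluster, which without it would be a pair. By band, median widths ran from 373 bp in qC1 (29 peaks, quartiles 321 and 487) to 633 bp in qC2 (19 peaks, 383 and 933.5).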

How the data were processed

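Per the submitters' processing notes, the tools were MACS2 2.2.7.1, Bowtie2 2.4.4, deepTools and SAMtools 1.14, and the mouse build mm10. The role of each tool, the control, the calling threshold and the way the 3 HA libraries were combined are not stated there. The list deposited by the authors gives chromosome, start and end of each peak (unit: positions in bp), with no score, so width stood in for one. Positions are printed counting from 1.

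Chromosome lengths came from GenomeInfoDb 1.38.1 and bands from circlize 0.4.16 in R 4.3.3; counts, runs of peaks and intervals were computed in Python 3.11.15 with numpy 2.4.6, scipy 1.17.1 and pandas 2.3.3, and the procedures tested on artificial peak lists. The rest of the genome means chromosomes 1 to 18 and X. Left out were 1 mitochondrial peak and 1 on an unplaced sequence; chromosome Y had 0. A peak belongs to the band or window of its midpoint. Named were all bands and dense segments, the 10 widest peaks, the 10 clusters with the most peaks, the closest pair, the first and last peak, and the 5 fullest windows and longest stretches without a peak; the narrowest peaks and further pairs were named after seeing values. The regions and rules were chosen with earlier results of these data known. No mouse gene annotation or genome was used here, so no gene starts, motifs or sequences are given, and the band of each gene named is background knowledge. IgG data were not analysed here. Part of the line's genotype is not reported here.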

Additional observations from a re-analysis of the deposited data

How the results depend on the processing

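No paired analysis was possible because the list gives no value per library, and for the same reason no library could be left out. The ratio of peaks per Mb to the rest stayed between 2.11 and 2.25 under the 6 alternatives run, and chromosome 19 stayed richest with the wider 50% of peaks, without peaks under 100 bp and with neighbours within 1 kb joined. The median width difference to the rest, 7.5 bp, was 0 bp without peaks under 100 bp and 38.5 bp with neighbours joined. Between geometric means it was 15.8 bp. No interval of these differences is given. The band ratio of qC3 stayed between 1.63 and 1.71 under the 3 alternatives run, none of which left out the first 3 Mb. That of qC2, 1.27, was 1.70 with the wider 50% of peaks, above the 1.69 of qC3 there, and that of qD1, 0.375, was 0.242 with neighbours joined.

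How much is clustered depends on its definition. The share in clusters, 19.5%, was 8.51% with a gap of 5 kb, 50% with 50 kb, 46.5% with 2 peaks enough, 6.94% with the wider 50% of peaks and 11.6% with neighbours within 1 kb joined. Dense segments, 13, numbered 6 with a gap of 25 kb, 19 with 100 kb, 2 with the wider 50% of peaks and 8 with neighbours joined. Fewer regions are counted in the last 2 settings, 144 with the wider 50% of peaks and 250 with neighbours joined, against 282. Joining also merges close neighbours that would each count towards a cluster. How far either accounts for the lower values was not tested. The share in the fullest windows, 49.3%, was 55.3% in the fullest 20 windows of 500 kb. In the fullest 5 windows of 2 Mb it was 44.7%, and with windows shifted by 500 kb 48.2%. With the wider 50% of peaks it was 52.1%, and with neighbours within 1 kb joined 48.4%. Joining, the denominators with Y or without the first 3 Mb, the scaled distances and the band alternatives were chosen after seeing the data. Counts per gene, distances to gene starts and motif counts were not run. Depth is unknown, so what it limits could not be measured.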
